A study of Noccaea caerulescens and Thlaspi montanum with 10 samples.

Results

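Field leaves of 2 populations of a single species, Noccaea caerulescens, were compared: the subspecies firmiensis, labelled a nickel hyperaccumulator, against the plants from Viviez, labelled non-accumulating for nickel. The comparison rests on 4 of the 10 libraries of the series, chosen by their labels: 2 individuals of firmiensis and 2 of Viviez, each sequenced as a separate polyA RNA library. Firmiensis leaves came from wild plants at Puy de Wolf, Firmi, collected on 5 July 2014. Viviez leaves came from wild plants at Viviez, collected on 5 June 2014. By the coordinates in the labels the places lie 7.26 km apart. The individuals grew 72.4 m apart within firmiensis and 141 m apart within Viviez. The labels give the field sites as serpentine or zinc mine ground without tying either to a plant, and all leaves were kept in RNAlater. Site and month coincide with plant, so an effect of population, soil or month cannot be told apart. Viviez replicate 2 carries run number 4 in its label and the other 3 libraries carry 5. Leaves of 2 wild N. montana individuals, a related species also labelled as not accumulating nickel and collected in June, entered the shared estimate of spread.

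Hyperaccumulators take metal up through the roots, bind it to small chelators such as histidine, nicotianamine and citrate, load it into the xylem and store it in leaf vacuoles, largely in the epidermis. Noccaea caerulescens is a model for this trait, and its populations are known to differ widely in which metals they accumulate. In other studies of the species, transporters of metals into the xylem and the vacuole and enzymes of chelator synthesis were among the genes expressed at a higher level than in relatives without the trait. Here the transcripts carry only the number of the contig, an assembled sequence, and the files do not pair these numbers with genes. No transcript can therefore be assigned to a transporter, a chelator enzyme or a leaf marker, and the leaf label could not be checked against marker genes.

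Counts were available in all 4 libraries for 41841 of 41843 listed transcripts, which had been assembled from firmiensis. The libraries held 59476715 and 60576935 reads in firmiensis replicates 1 and 2, against 63042462 and 59687511 reads in Viviez replicates 1 and 2. These totals are reads counted on the listed transcripts, and the number of reads sequenced is not known. The near-equal totals gave both plants a similar counting error. Levels are given as CPM, read counts scaled to library size, with TMM scaling factors applied unless called unscaled. A level of at least 1 unscaled CPM was reached by 20517 and 21246 transcripts in the firmiensis libraries and by 20392 and 19835 in the Viviez libraries. The 100 most abundant transcripts held 26.84% and 22.31% of the reads in firmiensis, against 22.88% and 25.74% in Viviez, so the ranges of this share overlapped between the plants.

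Leaves of the 2 populations differed more than leaves of 2 individuals of either population. Among the 21510 transcripts with a mean of at least 1 CPM over the 4 libraries, 30% were at least 2-fold apart between firmiensis replicate 1 and Viviez replicate 1, and 30.5% between firmiensis replicate 1 and Viviez replicate 2. For firmiensis replicate 2 the shares were 27.4% against Viviez replicate 1 and 28% against Viviez replicate 2. Between the firmiensis individuals 11.1% of transcripts were that far apart, and between the Viviez individuals 4.85%. All 4 comparisons across the plants thus exceeded both comparisons within a plant, and the firmiensis individuals were less alike than the Viviez individuals. With a single pair in each plant, this difference in spread could not be tested. Differences of at least 4-fold were found for 10.1% to 11.4% of transcripts across the plants, for 2.68% between the firmiensis individuals and for 0.781% between the Viviez individuals. The typical transcript differed by a median of 1.44-fold to 1.5-fold across the plants, by 1.26-fold within firmiensis and by 1.17-fold within Viviez. Each of these ratios was taken after adding 0.5 CPM to both values.

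**Figure D1:**
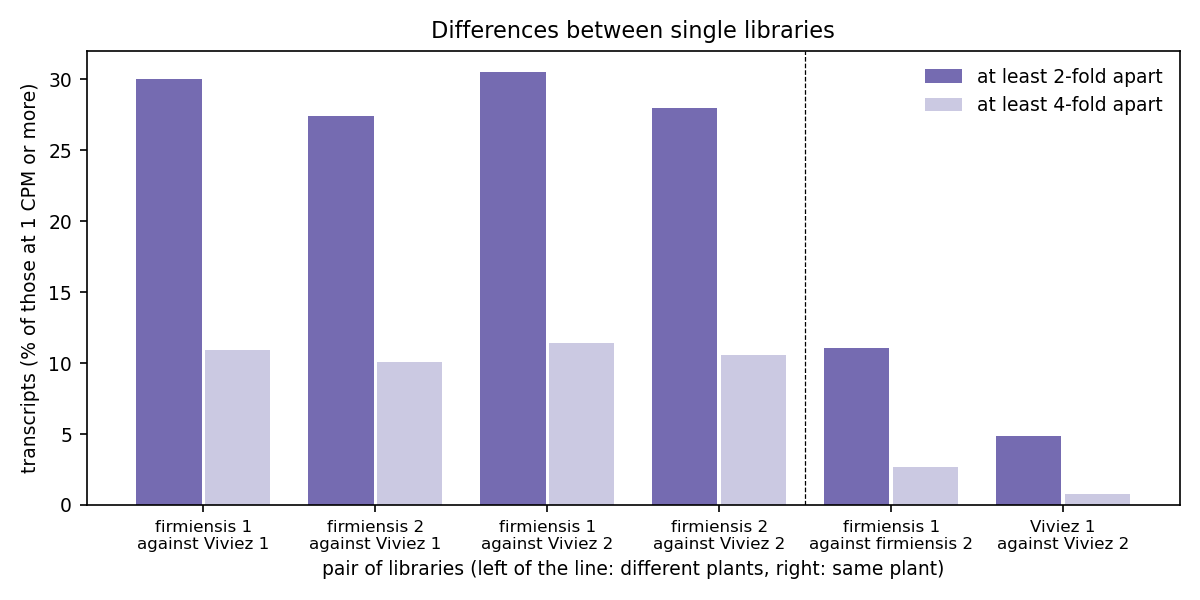
Share of transcripts with a mean of 1 CPM or more (vertical axis, percent of 21510 transcripts) that were at least 2-fold or at least 4-fold apart in each pair of libraries (horizontal axis). The 4 pairs of a firmiensis with a Viviez library lie at 27.4% to 30.5% for 2-fold differences, above 11.1% within firmiensis and 4.85% within Viviez.

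The most abundant leaf transcripts were largely shared. Of the 100 with most reads in a library, 62 to 67 were also among the 100 of a library of the other plant, against 85 shared between the firmiensis individuals and 89 between the Viviez individuals. Of the 1000 with most reads, 690 to 710 were shared across the plants, 816 within firmiensis and 858 within Viviez. Across the 21510 transcripts, Spearman's rho was 0.837 to 0.856 between libraries of different plants, 0.94 within firmiensis and 0.975 within Viviez, a description over transcripts of the same assembly, which are not independent. Expressed as reads, 24.3% to 30.1% of a firmiensis library would have to be moved to other transcripts to give the composition of a Viviez library. The same quantity was 15% within firmiensis and 11.2% within Viviez. Each of the 4 values across the plants exceeded both values within a plant.

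The hyperaccumulator differed from Viviez in 4680 of 32989 transcripts tested, or 14.2%, at an adjusted p under 0.05 (quasi-likelihood test of edgeR, Benjamini-Hochberg adjustment over all transcripts tested). Of these, 3133 (9.5% of those tested) were higher and 1547 (4.69%) were lower in firmiensis, so that 66.9% of the differing transcripts were higher. Reads of all plants were counted on transcripts assembled from firmiensis. Its part in the uneven directions here and below, and in the N. montana levels, was not tested. Every differing transcript had both libraries of a plant above both libraries of the other, a property shared by 63.5% of all transcripts tested, 33% with firmiensis above and 30.4% with firmiensis below. The ranking by p leaned further to the higher side: of the 100 transcripts with the smallest p, 76 were higher and 24 lower in firmiensis. An adjusted p under 0.01 was reached by 823 transcripts and the smallest was 0.0018. An unadjusted p under 0.05 was reached by 10666 transcripts. Over all transcripts tested the median log2 fold change was 0.0323 on the scale of firmiensis over Viviez. Transcripts unread in a plant were set at a limit of 3 reads over its libraries. TMM scaling brings the middle of the fold changes near 0. The median therefore cannot show a shift common to most transcripts. Each count fell when a plant was left with 1 library. Of firmiensis, leaving out replicate 1 gave 1666 higher and 703 lower transcripts and leaving out replicate 2 gave 2069 and 1091. Of Viviez, leaving out replicate 1 gave 684 higher and 245 lower transcripts and leaving out replicate 2 gave 457 and 211.

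**Figure D2:**
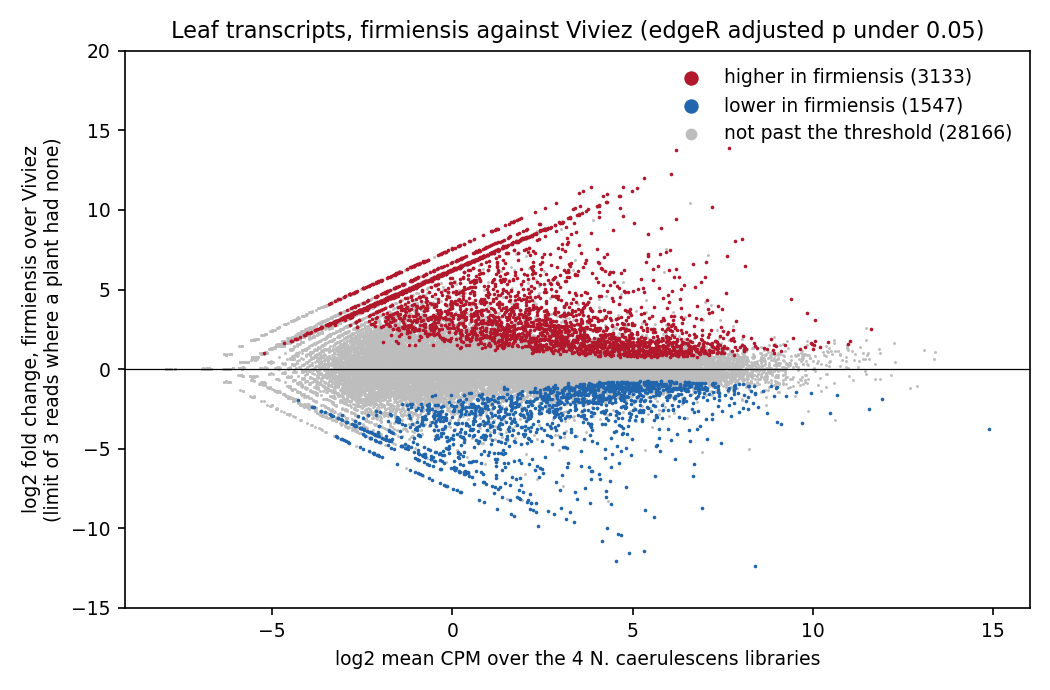
Log2 fold change of firmiensis over Viviez (vertical axis) against the log2 of the mean CPM over the 4 libraries (horizontal axis) for each tested transcript read in either plant. Red points are the 3133 transcripts higher and blue points the 1547 lower in firmiensis, and the straight bands at the edges are transcripts with few reads, or none, in a plant, placed at the limit of 3 reads where there were none.

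The share of calls that were higher in firmiensis was larger in the classes below 10 CPM than in those of 10 to 1000 CPM. At a mean of 0.1 to 1 CPM, 894 transcripts were higher and 291 lower in firmiensis, or 75.4% higher. At 1 to 10 CPM, 1222 were higher and 547 lower, or 69.1% higher, and this class had the largest share of differing transcripts, 19.2% of 9217 tested. At 10 to 100 CPM, 822 were higher and 588 lower, or 58.3% higher. At 100 to 1000 CPM, 144 were higher and 106 lower, or 57.6%. Of the 90 transcripts at 1000 CPM or more, 9 were higher and 5 lower. Between 13.4% and 15.6% of transcripts differed in the classes above 10 CPM. In the classes of 0.1 to 1, 1 to 10 and 10 to 100 CPM, most calls were higher in firmiensis under 11 other scalings, tests and sets of libraries, with shares of 70.5% to 87.1%, 64.1% to 79.1% and 53.2% to 65.9% in that order of classes. In the class of 100 to 1000 CPM this did not hold: without Viviez replicate 1, 18 were higher and 21 lower, and without Viviez replicate 2, 10 were higher and 16 lower.

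**Figure D3:**
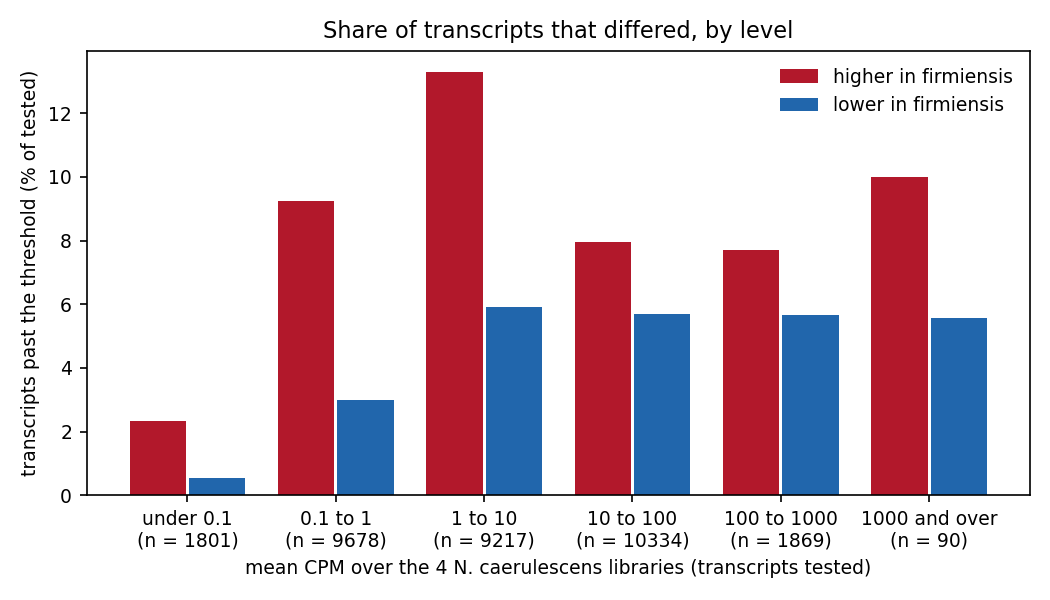
Share of the tested transcripts (vertical axis, percent) that were higher or lower in firmiensis than in Viviez at an adjusted p under 0.05, by class of mean CPM over the 4 libraries (horizontal axis, with the number tested). The higher share falls to 7.95% at 10 to 100 CPM, against 13.3% at 1 to 10 CPM, while the lower share stays between 5.56% and 5.93% in the classes from 1 CPM upwards.

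Non-overlap of the libraries, a count that needs no test, was less uneven in direction over all levels and reversed at 10 to 100 CPM. Among the 10334 transcripts at 10 to 100 CPM, both firmiensis libraries lay above both Viviez libraries for 2893 transcripts and below them for 3922, the reverse of the order among the calls of that class. The same class gave 2662 above and 4191 below with library totals alone, 2922 above and 3872 below with RLE scaling and 2969 above and 3848 below with upper quartile scaling. Over all levels TMM gave 10899 above and 10035 below, but library totals alone gave 10347 above and 10471 below. At 10 to 100 CPM the plants' libraries thus stood apart more often with Viviez above under all 4 scalings, while the transcripts that passed the test were more often higher in firmiensis.

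Large differences were more uneven in direction than small ones. A fold change of 2 or more was reached by 3027 of the higher and 1429 of the lower transcripts, a ratio of 2.12. At 8-fold the numbers were 1678 higher and 605 lower, at 16-fold 1161 and 380, and at 64-fold 482 and 128, a ratio of 3.77. At 1024-fold or more there were 27 higher and 8 lower transcripts. Among the higher transcripts 585 had no read at all in Viviez, and among the lower transcripts 110 had no read in firmiensis. Their folds were taken against 3 reads over the libraries of the unread plant and are lower bounds. Transcripts with any read in both plants kept the edgeR fold without such a limit. The largest fold classes therefore mix limited and unlimited folds. A test against a 2-fold change in place of no change, within the same edgeR fit and at the same adjusted p, was passed by 1993 transcripts (6.04% of those tested), 1431 of them higher (4.34%) and 562 lower (1.7%) in firmiensis. With firmiensis replicate 1 left out, 823 higher and 325 lower transcripts passed it. With Viviez replicate 1 left out the numbers were 411 and 121, and with Viviez replicate 2 left out they were 293 and 111.

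**Figure D4:**
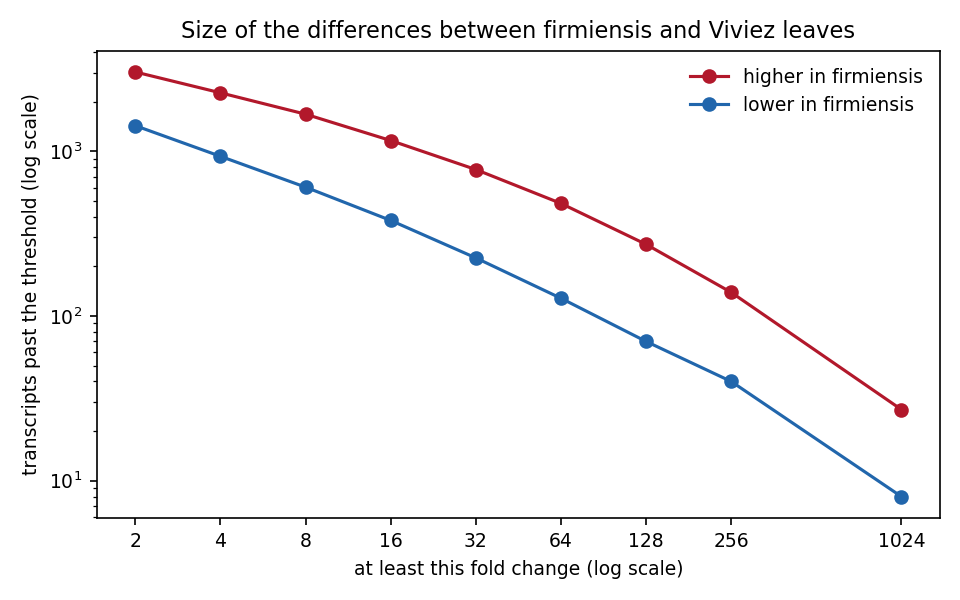
Number of transcripts past the threshold (vertical axis, log scale) that were at least as many-fold higher (red) or lower (blue) in firmiensis as the horizontal axis gives (log scale). The lines run from 3027 higher and 1429 lower at 2-fold to 27 higher and 8 lower at 1024-fold.

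A count over single plants gave the same order of directions. All 4 ratios of a firmiensis to a Viviez library were at least 2-fold for 2544 transcripts higher and 1383 lower in firmiensis, after adding 0.5 CPM to each value. At 4-fold in all 4 ratios there were 853 higher and 398 lower, at 8-fold 330 and 132, and at 32-fold 54 and 24. Of the transcripts at 8-fold in every ratio, 324 of 330 higher and 128 of 132 lower ones also passed the edgeR threshold, which 14.2% of all tested transcripts passed. These counts use the same 4 libraries as the test and are no separate support for it.

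The median fold between individuals of a plant was similar in the differing transcripts and in all transcripts. Differences of at least 4-fold between individuals made up a smaller share of the differing transcripts. At 1 CPM or more, the median fold between the firmiensis individuals was 1.25 among the 3443 differing transcripts and 1.26 among all 21510. Between the Viviez individuals it was 1.15 among the differing transcripts and 1.17 among all. Individuals at least 4-fold apart were seen for 61 differing transcripts (1.77%) in firmiensis and for 11 (0.319%) in Viviez. Among all 21510 transcripts such differences numbered 576 (2.68%) in firmiensis, 275 of them higher in replicate 1 and 301 in replicate 2. In Viviez they numbered 168 (0.781%), 90 higher in replicate 1 and 78 in replicate 2. In 23 transcripts the individuals were this far apart in both plants. The test itself selects transcripts whose individuals resemble each other, so these values describe the calls and are not a property of the transcripts.

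The higher and lower transcripts held different shares of the counted reads in each plant. The 3133 higher transcripts held 11.54% and 10.96% of reads in the firmiensis libraries, against 3.439% and 3.045% in the Viviez libraries. The 1547 lower transcripts held 2.419% and 2.989% in firmiensis, against 11.8% and 15.12% in Viviez. Both lists were chosen on these counts, and their shares are a description. The gap between the Viviez libraries in the lower list lay in a single transcript, Ncfi_contig_1579, without which the list held 2.156% and 2.476% in firmiensis, against 8.315% and 8.007% in Viviez. No single transcript dominated the higher list: the first alone made up 4.96% of the summed differences of mean CPM. In that list 100 transcripts, or 3.19%, made up 50% of the total. In the lower list the first transcript made up 46.2%, and without it 50 transcripts, 3.23% of the remaining list, made up 50%. Without a library fewer transcripts were called and all shares shrank, most without Viviez replicate 2, when the higher transcripts held 1.132% in firmiensis, against 0.06188% in Viviez, and the lower ones 0.119% in firmiensis, against 1.32% in Viviez.

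The transcripts named here are the 2 higher and the 2 lower ones with the largest difference of mean CPM among those past the threshold. Ncfi_contig_1579 held 0.2635% and 0.5135% of all reads in firmiensis, against 3.482% and 7.117% in Viviez, where it was the most abundant transcript. Its level was 3047.3 and 5229.6 CPM in firmiensis replicates 1 and 2, against 35656.5 and 76464.3 CPM in Viviez replicates 1 and 2. The groups did not overlap: the lower Viviez individual stood 6.82-fold above the higher firmiensis individual, although the Viviez individuals themselves differed by more than a factor of 2. The means were 4138.5 ± 1543.1 CPM in firmiensis and 56060 ± 28856 CPM in Viviez (SD, n = 2 each), a log2 fold change of -3.76 ± 0.73 (SE, edgeR adjusted p = 0.0261). In the test against a 2-fold change its edgeR adjusted p was 0.0487, which passed, while the other 3 named transcripts did not pass, at 0.135 for Ncfi_contig_1242, 0.104 for Ncfi_contig_20964 and 0.108 for Ncfi_contig_32078. In N. montana it stood at 1420.9 and 1089.9 CPM, below both N. caerulescens plants.

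Ncfi_contig_1242 was lower in firmiensis with little spread between individuals. It stood at 1686.5 and 1654.4 CPM in firmiensis, against 5999.4 and 6290 CPM in Viviez. The lower Viviez individual was 3.56-fold above the higher firmiensis individual. The means of 1670.4 ± 22.718 CPM in firmiensis and 6144.7 ± 205.5 CPM in Viviez (SD, n = 2 each) gave a log2 fold change of -1.88 ± 0.424 (SE, edgeR adjusted p = 0.0378). Its level in N. montana was 334.5 and 177.5 CPM.

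Ncfi_contig_20964 had the largest gain in firmiensis among the higher transcripts. It stood at 6227 and 4442.4 CPM in firmiensis, against 1285.6 and 597.5 CPM in Viviez, and the nearest individuals of the plants were 3.46-fold apart. The means were 5334.7 ± 1261.9 CPM in firmiensis and 941.57 ± 486.59 CPM in Viviez (SD, n = 2 each), a log2 fold change of 2.50 ± 0.577 (SE, edgeR adjusted p = 0.0398). In N. montana it had 2683.7 and 5131.7 CPM, overlapping the firmiensis range. Ncfi_contig_32078 stood at 3122.8 and 3407.7 CPM in firmiensis, against 918.7 and 991 CPM in Viviez, with the nearest individuals 3.15-fold apart. Its means were 3265.2 ± 201.49 CPM in firmiensis and 954.84 ± 51.121 CPM in Viviez (SD, n = 2 each), a log2 fold change of 1.77 ± 0.349 (SE, edgeR adjusted p = 0.0267). In N. montana it was the lowest of the 3 plants, with 217.6 and 137.9 CPM.

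The calls of these 4 transcripts rest on having both individuals of each plant. Leaving out any of the 4 N. caerulescens libraries ended each call, with the edgeR adjusted p at 0.0522 to 0.0921 for Ncfi_contig_1579, 0.101 to 0.156 for Ncfi_contig_1242, 0.0621 to 0.205 for Ncfi_contig_20964 and 0.0574 to 0.16 for Ncfi_contig_32078. The direction stayed the same in each of these fits. Leaving out Viviez replicate 2 moved the log2 fold change of Ncfi_contig_1579 to -3.11, and leaving out Viviez replicate 1 moved that of Ncfi_contig_20964 to 3.15.

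**Figure D5:**
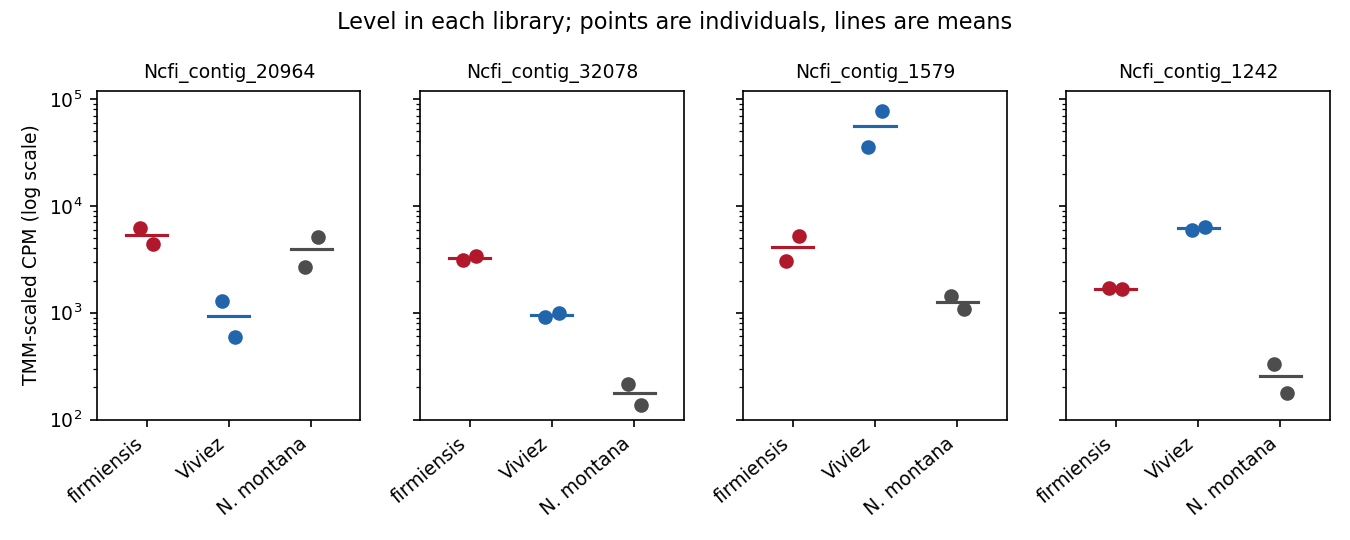
TMM-scaled CPM (vertical axis, log scale) of the 4 named transcripts in each field leaf library, by plant (horizontal axis). Points are individuals and lines the means of 2, and the firmiensis and Viviez points do not overlap in any panel, with the nearest individuals 3.15-fold to 6.82-fold apart.

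The 10 higher transcripts with the largest difference, the 2 named ones included, had mean levels of 1280 to 5330 CPM in firmiensis, against 60.5 to 1010 CPM in Viviez, and log2 fold changes of 1.41 to 4.41. The 10 lower ones, likewise with the named ones, had mean levels of 91.6 to 4140 CPM in firmiensis, against 928 to 56100 CPM in Viviez, and log2 fold changes of -3.76 to -1.41. Of these, 1 of the 10 higher and 5 of the 10 lower transcripts also passed the test against a 2-fold change, which 4.34% of all tested transcripts passed as higher and 1.7% as lower. Of the 20 transcripts with the largest difference of mean CPM in either direction, 7 passed the threshold, against 14.2% of all tested transcripts, and the other 13 had edgeR adjusted p from 0.0511 to 0.416. The libraries of the plants did not overlap for any of the 20, as for 63.5% of all tested transcripts.

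Presence and absence were uneven between the plants. By a limit of 1 unscaled CPM in both individuals against at most 3 reads over the other plant, 347 of 19644 transcripts of firmiensis (1.77%) were not detected in Viviez. In reverse, 76 of 19309 transcripts of Viviez (0.394%) were not detected in firmiensis. Not a single read was found in the other plant for 218 of the 347 and for 32 of the 76. The 3 reads correspond to 0.025 CPM in firmiensis and 0.0244 CPM in Viviez, so lower levels were not detectable at this depth. A list assembled from firmiensis is less likely to hold transcripts that firmiensis does not express, and its part in the uneven numbers was not tested. Without firmiensis replicate 1 the 76 became 160, and without firmiensis replicate 2 they became 189.

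Most of the transcripts detected in a single N. caerulescens plant were weakly expressed. The 347 had a median level of 3.29 CPM in firmiensis, 55 of them reached 10 CPM and 3 reached 100 CPM. The 76 had a median of 2.59 CPM in Viviez, 8 reached 10 CPM and none reached 100 CPM. Together the 347 held 0.288% and 0.276% of the reads of the firmiensis libraries, and the 76 held 0.0615% and 0.0421% of those of the Viviez libraries. Individuals of the plant that expressed them differed by a median of 1.34-fold for the 347 and 1.29-fold for the 76. A difference of at least 4-fold between individuals was seen for 9 of the 347 and for none of the 76. In N. montana, 112 of the 347 were present by the same limit and 60 were not detected, and 7 of the 76 were present and 23 not detected.

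Counted over single individuals, the imbalance had the same direction. This count uses the same 4 libraries and transcript list as the one above and is no separate support for it. Between 563 and 737 transcripts were present in a firmiensis library and had at most 3 reads in a Viviez library, over the 4 pairs, against 188 to 271 in the opposite direction. Between individuals of the same plant, 91 transcripts were present in firmiensis replicate 1 and not detected in replicate 2, and 135 the other way round. In Viviez the numbers were 44 and 18. Differences in detection between the plants thus exceeded those between individuals in each pair of libraries.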

How the data were processed

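Leaf polyA RNA libraries had been made with the TruSeq Stranded mRNA kit and sequenced as paired ends, per the labels' protocols and the series' design text. Each deposited file holds unnormalised read counts for a library, per the file headers, on a transcriptome that the authors had assembled de novo from hydroponically grown firmiensis. The sources used here do not give the aligner, the counting tool or any filter. Transcripts with empty cells, 2 in number, were left out, and the 4 hydroponic libraries were not analysed here.

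Counts were tested with edgeR 4.0.16 in R 4.3.3 over all 6 field libraries, 1 coefficient for each plant, which left 3 residual degrees of freedom. filterByExpr (minimum count 10) kept 32989 transcripts with 99.96% of reads, and libraries were scaled by TMM. The common biological coefficient of variation was 39.5%. The threshold was an adjusted p of 0.05, and the test against a 2-fold change used glmTreat. The SE is the log2 fold change divided by the square root of F. Replicates are individual plants, and the p-values rest on the spread between the 2 wild individuals of each plant. This spread was pooled over all 6 field libraries, N. montana included, and drawn towards that of other transcripts. Named transcripts are the 2 higher and the 2 lower ones with the largest difference of mean CPM among those past the threshold without overlap. Comparisons, lists and rules were chosen with earlier results of these data known. The procedure was run on simulated counts in which only transcripts above 1 CPM were changed. That run cannot show recovery of changes at lower levels, and no result here rests on it. Alternatives were DESeq2 1.42.0, limma 3.58.1 (voom), other scalings and filters, 4 libraries only, the replicate number as a block, and each library left out. Detection limits cover counting error only. Reads shared between near-identical transcripts could not be resolved.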

Additional observations from a re-analysis of the deposited data

How the results depend on the processing

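The 3133 higher and 1547 lower transcripts became 5206 and 3055 with DESeq2, 1224 and 712 over the 17609 transcripts at 1 CPM or more in each of the 4 libraries, and 1431 and 562 against a 2-fold change. With the replicate block they became 1713 and 770, and all 4 named transcripts missed the threshold, with edgeR adjusted p of 0.0783 for Ncfi_contig_20964, 0.0625 for Ncfi_contig_32078, 0.0589 for Ncfi_contig_1579 and 0.0748 for Ncfi_contig_1242. The individuals share only a number: the difference between individuals 1 and 2 correlated with r = 0.0343 between the plants, over 21510 transcripts. Leaving out a library gave 457 to 2668 higher and 211 to 1385 lower transcripts, the fewest without a Viviez library, where 684 and 245 remained without replicate 1 and 457 and 211 without replicate 2. Those fits leave a plant with a single library, assumed to vary like the others. In all 4 fits without a firmiensis or Viviez library, 402 of the 3133 and 158 of the 1547 were called, with median log2 fold changes of 6.75 and -4.93. No transcript was called in the opposite direction in any of the 17 alternatives. With limma voom, RLE, upper quartile or total scaling, no filter, 4 libraries, or without Ncfi_contig_1579 (chosen after seeing the data), both counts stayed within 1.5 times, and 63.6% to 67.2% of calls were higher in firmiensis.

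The 1431 and 562 past the 2-fold test became 133 and 76 at 1 CPM or more in each library and 822 and 311 with the replicate block. Leaving out a library gave 293 to 1218 higher and 111 to 506 lower.

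With library totals alone the higher transcripts held 10.68% of firmiensis reads. Leaving out a library of either plant, they held 1.132% to 8.947% in firmiensis and 0.06188% to 2.144% in Viviez, and the lower ones 0.119% to 0.8474% in firmiensis and 1.32% to 4.369% in Viviez.

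The 347 transcripts found in firmiensis and not Viviez became 529 at 0.5 CPM, 90 at 5 CPM and 218 with 0 reads allowed. The 76 in reverse became 116, 21 and 32. Leaving out a library gave 422 to 503 and 91 to 189, the 76 rising to 160 without firmiensis replicate 1 and 189 without replicate 2.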

Other observations

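The third field plant, N. montana, was not part of the comparison, and its levels in the same lists are given as values only. N. montana bore on the choice of the lists only through the shared estimate of spread, the filter and the TMM scaling. Each list was selected for a high level in a plant of N. caerulescens and a low level in the other. Over the 3133 transcripts higher in firmiensis than in Viviez, the median level was 5.81 and 5.38 CPM in the firmiensis libraries and 0.406 and 0.342 CPM in the Viviez libraries. In the N. montana libraries it was 2.91 and 2.88 CPM. Over the 1547 lower transcripts it was 1.73 and 1.78 CPM in firmiensis and 12.3 and 11.4 CPM in Viviez, and 3.99 and 3.62 CPM in N. montana. Over all 32989 transcripts tested it was 3.4 and 3.63 CPM in firmiensis, 3.05 and 2.86 CPM in Viviez, and 3.84 and 3.61 CPM in N. montana. The higher transcripts held 9.908% and 11.09% of reads in N. montana, against 11.54% and 10.96% in firmiensis, and the lower transcripts 3.563% and 3.286%, against 11.8% and 15.12% in Viviez.

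Among the transcripts past the threshold, the 10 with the largest gain in firmiensis had mean levels of 160 to 3910 CPM in N. montana. The 10 with the largest loss among them had 3.27 to 1260 CPM in N. montana.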
